A study of Mus musculus with 16 samples.

Results

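Solute carriers are the membrane proteins that move amino acids, sugars, ions, metals, nucleotides and vitamins into cells and organelles. Mouse genes of this family were taken as all rows of the deposited expression tables whose symbol begins with Slc and a digit, leaving out Slc25a37, Slc25a38, Slc39a14 and Slc2a4. The rule took 40 of the 2247 genes listed, 32 in the table of newly made RNA and 10 in the fetal liver table, with Slc43a1 and Slc30a10 in both. Among the 40, 2 symbols do not name carriers: Slc2a4rg-ps is a pseudogene of a transcription regulator, and Slc9a3r2 is a scaffold protein that binds an exchanger.

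The family names its members by sequence, and each number after Slc marks a group with a broadly shared substrate. Red cell precursors divide quickly while they fill with hemoglobin, so they import leucine, glutamine and glycine, glucose and iron. The mature red cell carries the chloride and bicarbonate exchanger band 3, the product of Slc4a1, as its most abundant membrane protein. KLF1 is the erythroid zinc finger factor that binds CACCC elements and switches on globin and many other red cell genes. Nan is a semidominant mouse mutation in its DNA-binding domain.

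The study compared KLF1 with Nan-KLF1 in K1 cells, erythroblasts without KLF1 of their own. K1-ER cells carry a KLF1-ER fusion and K1-NanER cells a Nan-KLF1-ER fusion, both held inactive until 4-hydroxytamoxifen is given, here at 200 nM. RNA made during 1 h with 500 uM 4-thiouridine (4sU) was sequenced in 2 libraries each of K1-ER (clones A and C), K1-NanER (clones B and X) and parental K1 cells. Chromatin immunoprecipitation with a KLF1 antibody was done after 3 h of induction in K1-ER and K1-NanER cells, with 1 library and 1 input per factor made from 3 pooled replicates. Whole fetal livers at embryonic day 14.5 were of 2 genotypes, Nan/+ and +/+, with 3 libraries each, sequenced as polyadenylated RNA after globin RNA was removed. The treatment label of parental K1 also names tamoxifen, although the K1 column header does not.

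Levels are in FPKM, fragments scaled to transcript length and to the mapped fragments of the library, which allows levels of different genes to be compared. The authors' deposited tables give 1 value per group, so no replicate spread stands beside any value here, and the depth of the libraries is unknown. A 4sU level of 0 is listed there as 0.1 FPKM, called the floor here. Positions of genes and peaks are on mouse build mm9. A gene was called when the authors' q was at most 0.05 against K1 or wild type. The 4sU table lists genes called in either comparison, and the liver table those called with a log2 change of 1 or more in size. Clones were compared with parental cells, so differences between clones are part of each 4sU value. Both 4sU comparisons share the K1 libraries, and K1-ER was not tested against K1-NanER. Of 12 erythroid markers 6 were listed in the 4sU table, with a summed level of 215.6 FPKM in K1 against 731 in K1-ER and 341 in K1-NanER by the authors' deposited table. Of the 6, 5 were called higher and none lower in K1-ER, where 37.9% of the table rose and 11.5% fell. In K1-NanER 3 were called higher and 1 lower, where 47.4% of the table rose and 28.3% fell. The macrophage, granulocyte, mast cell, muscle and endothelial lists had no member there.

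In K1-ER, the glutamine importer Slc1a5, the leucine carrier Slc43a1, the glucose importer Slc2a1, the phosphate importer Slc20a1 and all 3 listed Slc4 genes were called higher than in K1. Another 4 carriers of amino acids, Slc1a3, Slc1a4, Slc7a11 and Slc7a6, were called lower, and the glycine importer Slc6a9 was not called. Of the 32 listed members 17 were called (53.1%), against 49.4% of all genes of the 4sU table. Of the 32, 11 rose (34.4%), against 37.9% of the table, and 6 fell (18.8%), against 11.5%. The median log2 fold change of the 32 members was 0.71, against 0.72 over all genes listed. The members moved in both directions, and their share called was near the background.

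In K1-NanER, 23 of the 32 members were called (71.9%), against 75.7% of the table. Of the 32, 15 rose (46.9%), against 47.4% of the table, and 8 fell (25%), against 28.3%. The members' median log2 fold change was 0.80, against 1.04 over all genes listed. Without genes at the floor in either group, the medians were 0.34 over 28 members and 0.95 over 1445 genes. By gene, 8 members were called in both, 9 in K1-ER and not K1-NanER, and 15 in K1-NanER and not K1-ER. All 1556 genes of the 4sU table were called in at least 1 line, so this split follows from the shares called. These were 53.1% of members in K1-ER and 71.9% in K1-NanER, against 49.4% and 75.7% of the table, so the split was near the background. A call in 1 line alone does not show that the lines differ.

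**Figure D1:**
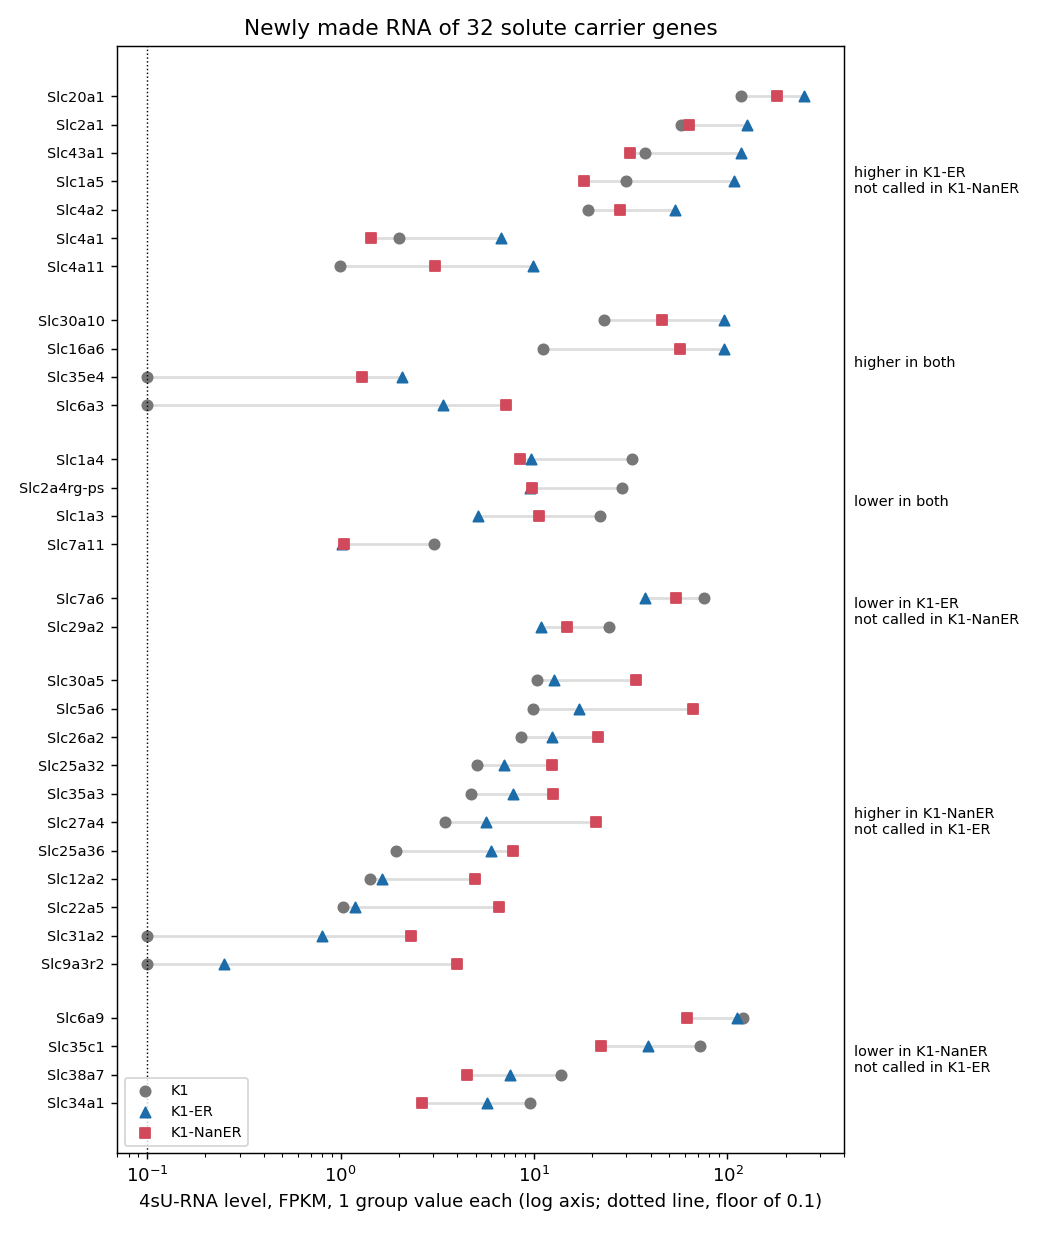
Level of newly made RNA (x axis, FPKM, log scale) of the 32 listed genes in K1 (circles), K1-ER (triangles) and K1-NanER (squares), as 1 deposited value per group, grouped by the authors' calls against K1. In the top block of 7 genes the K1-ER value is the highest of the 3, and 4 genes start at the floor of 0.1 FPKM in K1.

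The amino acid carriers split by gene. Slc1a5, the main glutamine importer of growing cells (chromosome 7, 17366695 to 17383623), stood at 29.7 FPKM in K1 against 107.7 in K1-ER and 18.2 in K1-NanER by the authors' deposited table. Slc43a1, a carrier of leucine and other large neutral amino acids (chromosome 2, 84679565 to 84703743), stood at 37.5 FPKM in K1 against 117 in K1-ER and 31.3 in K1-NanER by the authors' deposited table. Both were called higher in K1-ER, with log2 fold changes of 1.86 and 1.64 by the authors' deposited table. Neither was called in K1-NanER, where each value was below that of K1.

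The carriers that fell were mostly those of small neutral, acidic and sulphur amino acids. Slc1a3, a glutamate and aspartate importer, fell from 21.8 FPKM in K1 to 5.13 in K1-ER and 10.6 in K1-NanER by the authors' deposited table. Slc1a4, which exchanges alanine, serine and cysteine, fell from 32.2 FPKM to 9.59 in K1-ER and 8.44 in K1-NanER by the authors' deposited table. The cystine importer Slc7a11 fell from 3.04 FPKM to 1.01 in K1-ER and 1.04 in K1-NanER by the authors' deposited table. All 3 genes were called lower in both lines.

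Slc7a6, Slc38a7 and Slc6a9 were called lower in 1 line each. Slc7a6, an exchanger of cationic and neutral amino acids, fell from 75.9 to 37.6 FPKM in K1-ER and was at 54.0 FPKM in K1-NanER, where it was not called, by the authors' deposited table. Slc38a7, which exports glutamine from lysosomes, fell from 13.8 to 4.50 FPKM in K1-NanER and was at 7.48 FPKM in K1-ER, where it was not called, by the authors' deposited table. Slc6a9, the glycine importer that feeds heme synthesis (chromosome 4, 117507863 to 117545075), was the highest member in K1 at 119.8 FPKM by the authors' deposited table. Its level was 111.6 FPKM in K1-ER, not called, and 61.6 FPKM in K1-NanER, called lower with a q of 0.0498, by the authors' deposited table. The Slc6 group also holds Slc6a3, the dopamine transporter of neurons (chromosome 13, 73674195 to 73716120). It was at the floor of 0.1 FPKM in K1 against 3.39 in K1-ER and 7.16 in K1-NanER, called higher in both lines, by the authors' deposited table. Counted with Slc6a3, 3 of the 9 genes of the amino acid groups rose and 4 fell in K1-ER, and 1 rose and 5 fell in K1-NanER. Without Slc6a3, 2 of the 8 amino acid carriers rose and 4 fell in K1-ER, where 37.9% of all genes listed rose and 11.5% fell. In K1-NanER none of the 8 rose and 5 fell, where 47.4% of all genes listed rose and 28.3% fell.

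Amino acid carriers are among the known targets of ATF4, the factor of the amino acid response, so other genes of that response were set beside them. The 4sU table listed 9 of them, and its shares of genes that rose and fell were 37.9% and 11.5% in K1-ER and 47.4% and 28.3% in K1-NanER. Of these 4 rose and none fell in K1-ER, namely Atf4, Ddit3, Ddit4 and Phgdh, with Atf4 going from 186 to 389 FPKM by the authors' deposited table. In K1-NanER none rose and 5 fell, namely Cebpb, Chac1, Eif4ebp1, Shmt2 and Trib3, with Trib3 going from 55.4 to 16.4 FPKM by the authors' deposited table. The 4 that rose in K1-ER were not called in K1-NanER, where each level was above that of K1. Among them Atf4 was at 330 FPKM in K1-NanER, and Ddit3 at 130 FPKM against 54.6 in K1, by the authors' deposited table. In liver Cebpb was higher and Chac1 lower in Nan/+. Their part in the levels of the carriers was not tested.

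All 3 listed Slc4 genes rose in K1-ER, where 37.9% of the table did, and none was called in K1-NanER, where 75.7% of the table was. Slc4a1, band 3 (chromosome 11, 102210134 to 102226595), was at 2.00 FPKM in K1 against 6.79 in K1-ER and 1.43 in K1-NanER by the authors' deposited table. Slc4a2, the anion exchanger of most other cells, was at 19.1, 53.8 and 27.9 FPKM in K1, K1-ER and K1-NanER by the authors' deposited table. Slc4a11, best known from the corneal endothelium (chromosome 2, 130509844 to 130523255), was at 0.987, 9.88 and 3.08 FPKM in the same order by the authors' deposited table. Its log2 fold change of 3.32 in K1-ER was the largest rise of a member above the floor in K1, and its K1-NanER value of 1.64 had a q of 0.186 by the authors' deposited table. Slc26a2, a sulphate carrier of a neighbouring anion group, was called higher in K1-NanER, from 8.59 to 21.4 FPKM, and not in K1-ER, at 12.4 FPKM, by the authors' deposited table.

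A glucose and a phosphate importer were also called in K1-ER and not in K1-NanER. Slc2a1, the glucose importer GLUT1 (chromosome 4, 118781350 to 118809934), was at 57.8 FPKM in K1 against 127 in K1-ER and 63.6 in K1-NanER by the authors' deposited table. Slc20a1, a sodium-driven phosphate importer, was the highest member in both induced lines, at 248.9 FPKM in K1-ER and 181 in K1-NanER against 117 in K1, by the authors' deposited table. Both were called in K1-ER, with log2 fold changes of 1.13 and 1.09 by the authors' deposited table, and neither in K1-NanER. Slc34a1, the phosphate carrier known from kidney tubules, fell from 9.57 to 2.64 FPKM in K1-NanER and was not called in K1-ER, at 5.68 FPKM, by the authors' deposited table.

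Slc5a6 is numbered with the sugar carriers but imports the vitamins biotin and pantothenate. It was at 9.89 FPKM in K1 against 16.99 in K1-ER and 66.4 in K1-NanER by the authors' deposited table. Its log2 fold change of 2.75 in K1-NanER was the largest rise there of a member above the floor in K1, and it was not called in K1-ER. Slc16a6, of the monocarboxylate carriers, rose in both lines, from 11.1 to 95.7 FPKM in K1-ER and 56.7 in K1-NanER, by the authors' deposited table.

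All 3 listed metal carriers rose in K1-NanER, where 47.4% of the table did, and 1 of them in K1-ER, where 37.9% did. A gene had to be called in either line to be listed. Slc30a10, which exports manganese from the cell (chromosome 1, 187270995 to 187292640), was at 23.1 FPKM in K1 against 95.7 in K1-ER and 45.6 in K1-NanER, called higher in both, by the authors' deposited table. Slc30a5, which loads zinc into the Golgi, rose from 10.3 to 33.7 FPKM in K1-NanER and was at 12.6 FPKM in K1-ER, not called, by the authors' deposited table. Slc31a2, of the copper carriers, was at the floor in K1, at 0.802 FPKM in K1-ER, not called, and at 2.32 FPKM in K1-NanER, called higher, by the authors' deposited table.

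A further 7 genes rose in K1-NanER and were not called in K1-ER. The fatty acid carrier Slc27a4 went from 3.47 to 21.0 FPKM, with 5.66 FPKM in K1-ER, by the authors' deposited table. Slc22a5, the carnitine importer, went from 1.03 to 6.59 FPKM, with 1.18 FPKM in K1-ER, by the authors' deposited table. The scaffold gene Slc9a3r2 was at the floor in K1, at 0.249 FPKM in K1-ER and at 3.98 FPKM in K1-NanER by the authors' deposited table. The other 4 were Slc12a2, a sodium, potassium and chloride cotransporter, the mitochondrial folate carrier Slc25a32, the mitochondrial nucleotide carrier Slc25a36, and Slc35a3, which brings UDP-N-acetylglucosamine into the Golgi. Their levels in K1-NanER lay between 4.96 FPKM (Slc12a2) and 12.6 FPKM (Slc35a3), and their log2 fold changes between 1.28 (Slc25a32) and 2.02 (Slc25a36), by the authors' deposited table. Slc25a36 had nearly as high a level in K1-ER, 6.02 FPKM against 7.81 in K1-NanER and 1.93 in K1, with a q of 0.0761 in K1-ER, by the authors' deposited table.

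Carriers of nucleosides and nucleotide sugars went different ways. Slc29a2, a nucleoside carrier, fell from 24.4 to 10.9 FPKM in K1-ER and was at 14.7 FPKM in K1-NanER, not called, by the authors' deposited table. The GDP-fucose carrier Slc35c1 fell from 71.8 to 22.1 FPKM in K1-NanER and was at 38.6 FPKM in K1-ER, where its q was 0.0609, by the authors' deposited table. Slc35e4, whose substrate is not known, was at the floor in K1, at 2.07 FPKM in K1-ER and at 1.29 FPKM in K1-NanER, called higher in both, by the authors' deposited table. The pseudogene Slc2a4rg-ps fell from 28.4 FPKM to 9.51 in K1-ER and 9.72 in K1-NanER by the authors' deposited table.

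Other membrane transporters, pumps, channels and their partner proteins were counted in the same way. Of 24 listed in the 4sU table, 12 rose and 4 fell in K1-ER, against 37.9% and 11.5% of the table. In K1-NanER 10 rose and 5 fell, against 47.4% and 28.3% of the table. Bsg, the partner that carries monocarboxylate carriers such as those of the Slc16 group to the cell surface, rose from 63.9 FPKM to 175 in K1-ER and 128 in K1-NanER by the authors' deposited table. One listed name of this set that fell in K1-ER, Kcnq1ot1, is a noncoding RNA and not a channel.

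Binding was read from the authors' peak lists, which name the nearest gene within 300 kb of each peak. KLF1 peaks named 15 of the 40 members and Nan-KLF1 peaks 12, of which 10 had both, 5 KLF1 alone and 2 Nan-KLF1 alone, while 23 had neither. The same split over all 2247 genes listed is not given here, so these counts are not read as a trait of the family. A KLF1 summit that the authors gave to another gene lay inside the listed locus of Slc35a3, counted as Nan-KLF1 alone. The same held for Slc11a1, counted as having neither. Across the whole family, including genes with no row in the expression tables, 85 solute carrier genes had a peak in either list and 27 in both. Of these 85 genes 17 were among the members. KLF1 peaks named 71 of the 85, among 3809 genes of any kind, and Nan-KLF1 peaks 41, among 2148. Of the 32 members with 4sU values, 14 had a KLF1 peak, against 45.8% of all genes listed there, and 10 a Nan-KLF1 peak, against 26.5%.

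Every member that rose in K1-ER had a KLF1 peak: 11 of 11, where 71.1% of all 589 genes called higher in K1-ER did. Of the 6 members that fell 1 had one, Slc1a3, where 17.9% of all genes called lower did. Of the 15 members not called 2 had one, Slc5a6 and Slc6a9, where 33.2% of all genes not called did. With peaks that the authors labelled promoter alone, 7 of the 11 that rose had one, against 41.8% of all genes called higher. Among these 7 the summit lay inside the listed locus at Slc16a6, 32.9 kb from its nearer end, at Slc30a10, 7.75 kb, and at Slc4a2, 1.81 kb. A listed locus may be wider than the gene, which was not checked. These distances therefore do not place the summits against the gene's own start. Peaks above the list's median fold enrichment were found at 9 of the 11, against 55.0% of all genes called higher. Nan-KLF1 peaks were found at 6 of the 11, where 42.4% of all genes called higher in K1-ER had one, and at 1 of the 6 that fell, where 11.7% did.

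In K1-NanER, most members that changed had no peak of either factor. KLF1 peaks were found at 5 of the 15 that rose, against 51.6% of all genes called higher, and at 2 of the 8 that fell, against 23.6% of all genes called lower. Nan-KLF1 peaks were found at 4 of the 15 members that rose, where 31.5% of all genes called higher in K1-NanER had one, and at 2 of the 8 that fell, where 12.5% of all genes called lower had one. The 4 that rose were Slc30a10, Slc35a3, Slc5a6 and Slc6a3, and the 2 that fell were Slc1a3 and Slc6a9. Of the 7 members called in K1-ER and not in K1-NanER that rose, 4 had a Nan-KLF1 peak as well: Slc1a5, Slc2a1, Slc4a1 and Slc4a11. Such a peak was at 42.4% of all genes called higher in K1-ER and at 33.3% of all genes not called in K1-NanER. Slc20a1, Slc43a1 and Slc4a2 had KLF1 peaks and none in the Nan-KLF1 list.

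**Figure D2:**
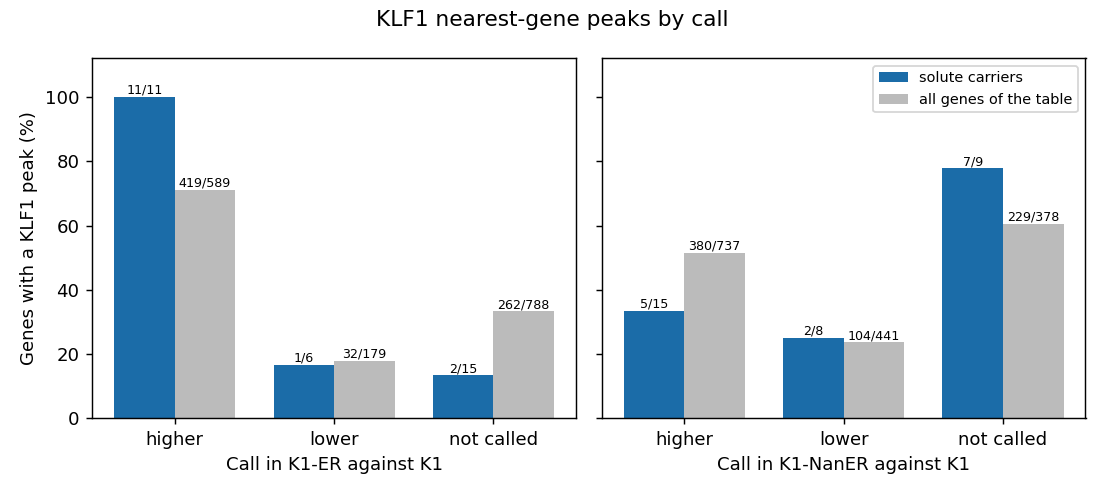
Share of genes with a KLF1 nearest-gene peak (y axis, %) by the authors' call in K1-ER (left) and K1-NanER (right), for solute carriers and for all genes of the 4sU table, with the counts above each bar. In K1-ER the share is 100% of the members that rose, against 71.1% of all genes that rose. It is 16.7% of the members that fell, against 17.9% of all genes that fell. Among members called higher in K1-NanER it is 33.3%, against 51.6% of all genes called higher.

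The 28 KLF1 peaks of the members comprised, by the authors' labels, 11 at promoters, 9 in introns, 6 distal, 1 intergenic and 1 in a UTR. The promoter share was 39.3% for the members and 29.4% for the whole list. Of the 17 Nan-KLF1 peaks 8 had the promoter label, a share of 47.1% against 24.4% for the whole list. For peaks of any solute carrier gene the shares were 37% (KLF1) and 36.7% (Nan-KLF1). The whole lists include peaks of genes with no row in the expression tables, while members were listed because they were called. With 1 library per factor, no test between the factors was possible.

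The highest KLF1 peak of a member, labelled promoter by the authors, was that of Slc4a11 (mm9 chromosome 2, 130522056 to 130523728), with the authors' fold enrichment of 493, followed by Slc6a3 at 219, Slc30a10 at 195 and Slc5a6 at 183. The highest Nan-KLF1 peaks, all labelled promoter, were those of Slc5a6 at 175, Slc30a10 at 158, Slc6a3 at 150 and Slc6a9 at 146.2. Of these, the summits at Slc5a6 and Slc30a10 lay 6.59 and 7.76 kb inside the listed locus from its start. Whether a listed locus covers the gene alone was not checked. Slc43a1 carried 1 KLF1 peak in an intron, with a fold enrichment of 178. Slc4a1 had 3 KLF1 peaks, all below the list's median of 75.6, from 47.9 to 60.0, of which 1 lay in an intron, 1 at 10.0 kb and 1 at 4.36 kb from the locus. The gene with the most KLF1 peaks was Slc6a9, with 5, and 3 Nan-KLF1 peaks beside it. Slc2a1 had KLF1 peaks at 2.82 and 67.7 kb from its locus, and Nan-KLF1 peaks at its promoter and at 52.7 and 55.8 kb.

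**Figure D3:**
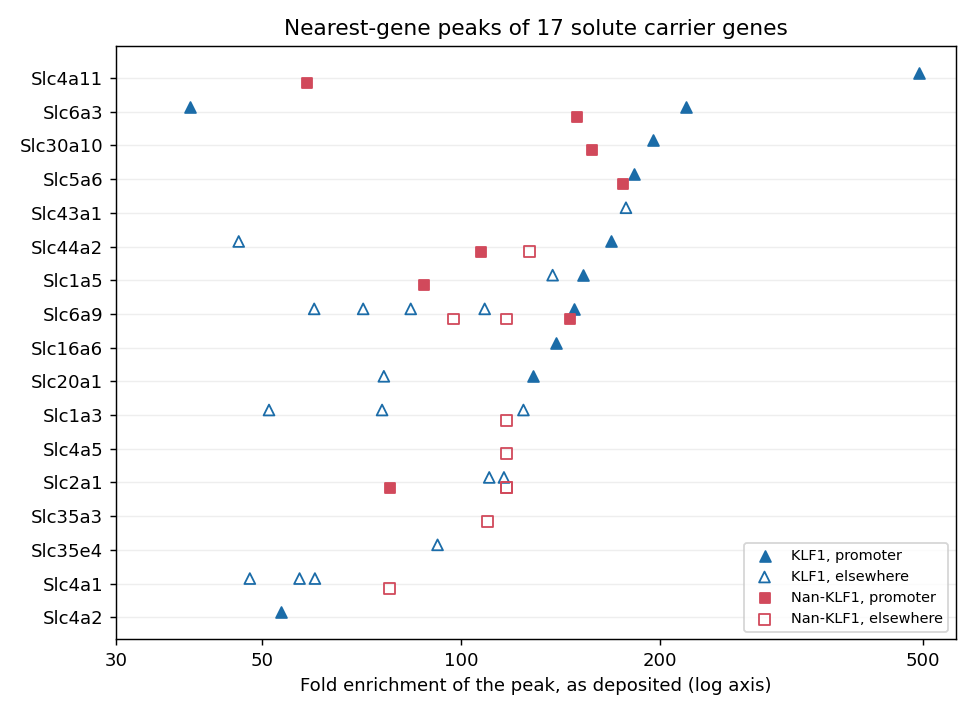
Fold enrichment of each peak (x axis, log scale, as deposited) whose nearest gene is 1 of 17 members, for KLF1 (triangles) and Nan-KLF1 (squares), filled where the authors' label is promoter and open elsewhere; 2 Nan-KLF1 peaks of Slc2a1 coincide at 117. Slc4a11 holds the highest KLF1 peak at 493, and its Nan-KLF1 peak is at 58.5.

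Peaks of both factors overlapped at 9 of the 10 members that had both, the exception being Slc2a1. By an overlap of at least 1 bp 11 of the 28 KLF1 peaks (39.3%) and 11 of the 17 Nan-KLF1 peaks (64.7%) were shared, against 22.8% and 44.8% of the whole lists. The authors' own intersection, in which no pair of summits is over 50 bp apart, held 4 of these 11 pairs, at Slc30a10, Slc1a5, Slc1a3 and Slc6a9. By that intersection 14.3% of the members' KLF1 peaks and 23.5% of their Nan-KLF1 peaks were shared, against 14.3% and 27.6% of the whole lists. The members were thus above the whole lists by the 1 bp rule and not by the authors' intersection. At the other 7 pairs the summits lay 79 to 217 bp apart, as at Slc6a3 (91 bp), Slc4a11 (107 bp), Slc44a2 (108 bp), Slc5a6 (167 bp) and Slc4a1 (217 bp).

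The central motif that the authors gave to each peak is an 8-base word, and the fourth of its bases differed in frequency between the lists. Of the 22 KLF1 peaks of members with a motif 17 had C there (77.3%), near the 80.2% of the whole list. Of the 16 such Nan-KLF1 peaks 8 had C there, near the 50.3% of the whole list. Of the 9 overlapping pairs with a word in both lists, 6 had different words and 3 the same. The KLF1 peak of Slc4a11 was centred on CCACGCCC and the Nan-KLF1 peak on CCCTTCCC. The intronic pair of Slc4a1 had CCACGCCC for KLF1 and CCCTGCCC for Nan-KLF1. At Slc30a10, whose summits were 13 bp apart, both lists gave CCCTGCCC.

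Promoter sequence is shown for 4 members, to show where the words of the factors lie. They had the highest promoter peaks among those with a promoter in the RefSeq table and a summit within 250 bases of the start of the listed locus. The sequences are the 250 bases before the most upstream RefSeq start on build GRCm38.p6, all on the plus strand, at chr13:73536497-73536746 (Slc6a3), chr9:21320469-21320718 (Slc44a2), chr4:117835008-117835257 (Slc6a9) and chr2:129198523-129198772 (Slc20a1). Capitals mark the word that the authors gave as central motif of a KLF1 or Nan-KLF1 promoter peak of that gene, on either strand.
Slc6a3: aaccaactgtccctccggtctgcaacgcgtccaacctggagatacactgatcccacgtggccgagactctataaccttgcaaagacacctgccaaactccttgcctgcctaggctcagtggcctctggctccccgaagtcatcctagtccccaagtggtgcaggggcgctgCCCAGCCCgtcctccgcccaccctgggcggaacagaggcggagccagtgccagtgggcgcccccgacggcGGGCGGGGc
Slc44a2: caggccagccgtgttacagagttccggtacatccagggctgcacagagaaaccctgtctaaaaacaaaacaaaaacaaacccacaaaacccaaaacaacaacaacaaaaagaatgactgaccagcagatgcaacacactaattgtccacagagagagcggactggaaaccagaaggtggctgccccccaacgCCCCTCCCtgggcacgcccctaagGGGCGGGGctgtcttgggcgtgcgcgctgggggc
Slc6a9: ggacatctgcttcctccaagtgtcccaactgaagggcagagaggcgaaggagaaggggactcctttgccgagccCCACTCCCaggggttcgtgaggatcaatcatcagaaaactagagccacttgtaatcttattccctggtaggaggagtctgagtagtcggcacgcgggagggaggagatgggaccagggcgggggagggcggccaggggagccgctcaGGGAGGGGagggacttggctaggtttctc
Slc20a1: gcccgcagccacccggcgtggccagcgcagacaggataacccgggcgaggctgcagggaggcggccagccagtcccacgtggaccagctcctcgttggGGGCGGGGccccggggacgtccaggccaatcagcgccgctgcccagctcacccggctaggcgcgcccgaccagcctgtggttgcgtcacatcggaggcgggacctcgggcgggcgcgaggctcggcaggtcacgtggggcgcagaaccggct

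In Slc6a3 the KLF1 word CCCCGCCC lay on the opposite strand, 2 to 9 bases before the start, and the Nan-KLF1 word CCCAGCCC 72 to 79 bases before it. The KLF1 summit was 28 and the Nan-KLF1 summit 119 bases before the mm9 edge of the locus. If that edge and the GRCm38 start are the same point, which was not checked, the words were centred 22.5 and 43.5 bases from those summits. On the same footing the distances in the other promoters ran from 12.5 bases (Slc6a9, KLF1) to 65.5 (Slc20a1, KLF1) and 68.5 (Slc44a2, Nan-KLF1). Slc44a2 had CCCCGCCC 27 to 34 bases before the start for KLF1 and CCCCTCCC 51 to 58 bases before it for Nan-KLF1, with summits 15 and 123 bases before the locus. In Slc6a9 the KLF1 word CCCCTCCC lay 22 to 29 bases and the Nan-KLF1 word CCACTCCC 169 to 176 bases before the start, with summits 38 and 213 bases before the locus. Slc20a1 had a KLF1 promoter peak alone, with CCCCGCCC 145 to 152 bases before the start and the summit at 214. Each of these words was found once in its window. Among the same windows of all 32851 RefSeq starts, searched on both strands, CCCCGCCC was present in 16.1%, CCCCTCCC in 10.9%, CCCAGCCC in 5.15% and CCACTCCC in 3.06%. A match describes the letters and is not a measured site. Promoters of 31 of the 40 members were matched by symbol.

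In fetal liver, 10 members were listed and 5 were higher and 5 lower in Nan/+ than in wild type. That list holds called genes alone (100%), and 75.4% of its 793 genes rose and 24.6% fell, so nothing is read from the members' count. Its rows include Xist, which silences 1 X chromosome in female cells, at 25.1 FPKM in wild type and 0.04 in Nan/+ by the authors' deposited table; whether the groups differed in sex was not tested. None of 12 erythroid and 11 hepatocyte markers had a row, so the tissue label could not be checked with them. In whole liver RNA, fewer cells of a type and less RNA per cell cannot be told apart.

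Slc43a1 and Slc30a10 were listed both for the livers and for the cell lines. The 4sU table, the liver table and the 2 together held 32, 10 and 40 members, against 1556, 793 and 2247 genes of any kind. Newly made RNA was measured in the cell lines and polyadenylated RNA in the livers. Slc43a1, the leucine carrier, was the highest member in wild-type liver at 91.1 FPKM and was at 39.5 FPKM in Nan/+, a log2 fold change of -1.21, by the authors' deposited table. The same gene rose in K1-ER and was not called in K1-NanER. Slc30a10, the manganese exporter, fell from 22.8 FPKM in wild type to 9.37 in Nan/+, a log2 fold change of -1.28, by the authors' deposited table. It had risen in both cell lines, with log2 fold changes of 2.05 (K1-ER) and 0.98 (K1-NanER) by the authors' deposited table. No other member had a row in both tables.

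The steepest fall in liver was that of Slc4a5, a sodium and bicarbonate cotransporter (chromosome 6, 83187369 to 83254939), from 1.43 to 0.07 FPKM by the authors' deposited table. It was 1 of the 2 members with a Nan-KLF1 peak and no KLF1 peak, which lay in an intron with a fold enrichment of 117. Slc22a4, an ergothioneine importer, fell from 14.2 to 4.53 FPKM and its neighbour Slc22a21, a carnitine carrier, from 1.09 to 0.24 FPKM by the authors' deposited table. These genes lie side by side with Slc22a5 in 163.5 kb of chromosome 11 (53678044 to 53841592), and no summit of either peak list lay in that stretch. Slc22a5 itself has a row in the 4sU table alone, where it rose in K1-NanER.

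Among the 5 members that rose, Slc44a2, a choline carrier (chromosome 9, 21125163 to 21159472), had the highest level, 37.4 FPKM in Nan/+ against 11.3 in wild type, and the largest log2 fold change, 1.72, by the authors' deposited table. It was also the only one of the 5 named by peaks, 2 in each list, of which 1 each lay at the promoter. Slc30a1, which exports zinc from the cell, rose from 8.80 to 21.1 FPKM by the authors' deposited table. Slc13a3, a dicarboxylate importer, went from 2.63 to 6.11 FPKM, Slc37a1, a sugar phosphate exchanger of the endoplasmic reticulum, from 0.93 to 2.15 FPKM, and Slc11a1, a metal carrier of phagosomes, from 4.72 to 9.63 FPKM by the authors' deposited table. Slc11a1 is known from phagocytes, so cell type markers are given beside it. The liver table holds called genes alone, of which 75.4% rose and 24.6% fell, and markers without a row have no direction here. All 8 granulocyte markers were listed and higher, with a summed level of 460 FPKM in wild type and 2725 in Nan/+, by the authors' deposited table. Of 9 macrophage markers 2 were listed, both higher, with a sum of 37.96 and 79.9 FPKM, by the authors' deposited table. Of 6 megakaryocyte and 6 mast cell markers 2 and 3 were listed, all higher. Of 15 muscle markers 7 were listed, all lower in Nan/+, with a sum of 44.8 and 1.77 FPKM, by the authors' deposited table. Their part in the liver values of the carriers was not tested. Of the 10 liver members 3 had a KLF1 peak, against 25% of all genes listed, and 3 a Nan-KLF1 peak, against 15.5%. By direction, KLF1 peaks were at 1 of 5 that rose, against 21.2%, and 2 of 5 that fell, against 36.4%. For Nan-KLF1 the counts were 1 of 5, against 16.1%, and 2 of 5, against 13.8%.

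**Figure D4:**
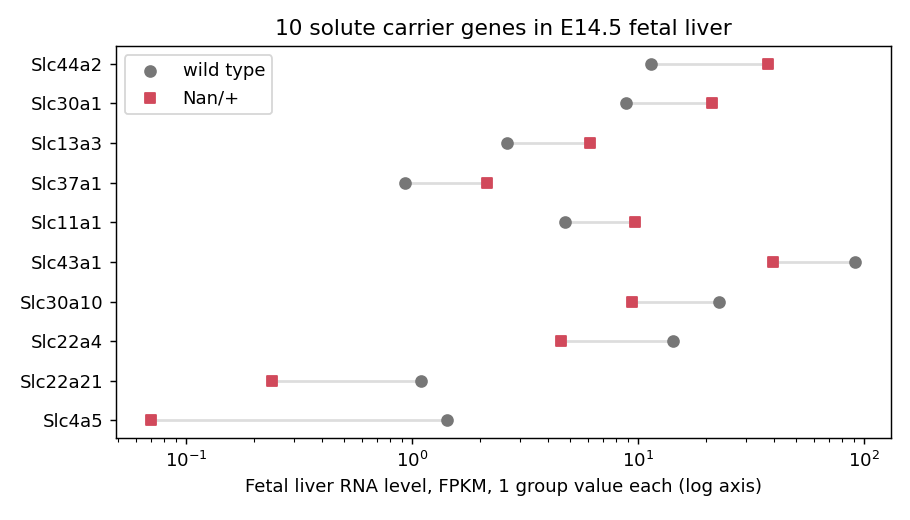
Level in fetal liver (x axis, FPKM, log scale) of the 10 listed members in wild type (circles) and Nan/+ (squares), as 1 deposited value per genotype. The upper 5 genes are higher in Nan/+, and of the lower 5 Slc4a5 shows the widest gap, from 1.43 to 0.07 FPKM.

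Other membrane transporters in the liver table, 15 in number, rose in 10 cases (66.7%) and fell in 5 (33.3%). Of all genes of that table, which holds called genes alone, 75.4% rose and 24.6% fell. The anion carrier Slco2b1 and the water channel Aqp3 were the extremes, Slco2b1 rising from 0.39 to 19.5 FPKM and Aqp3 falling from 12.8 to 1.97 FPKM by the authors' deposited table.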

How the data were processed

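The authors' deposited tables were used as given. Per the submitters' processing notes, build mm9, TopHat2 2.0.10 and MACS 1.4.2 were used; what computed FPKM and annotated peaks was not given in the sources used here. The deposited FPKM columns hold 1 value per group, and the deposited log2 fold changes, p-values and q values are those of the authors' comparisons. A 4sU level of 0 appears as 0.1 FPKM, called the floor. Peak heights are ratios (fold enrichment) that the authors deposited, and peak rank is a score of the authors, not used in any comparison.

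With no counts or per-sample values no model was fitted and no test was run; shares over the whole table stand in for one. Per the labels, the 4sU replicates of each induced line are different clones, and nothing says whether the other replicates came from separate cultures or litters. Members, substrate groups, marker lists and the alternatives were chosen with earlier results of these data known. Named were members called in 2 or more comparisons, those with a peak in both lists and the 8 largest rises and falls per comparison; the rest were added so that every member is accounted for. Promoters were limited to those with a RefSeq entry and a summit inside the window after the peaks were seen. Overlap and motif search were tested on simulated data. Peak coordinates are as deposited, and 1 was added to each gene's start. Values were computed with Python 3.11.15 and pandas 2.3.3.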

Additional observations from a re-analysis of the deposited data

How the results depend on the processing

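No paired analysis was possible because the tables hold 1 value per group, and for the same reason no replicate could be left out. At a q of at most 0.01 the members lower in K1-ER numbered 3, those higher and lower in K1-NanER 9 and 4, and those higher in liver 3. With a log2 change of 1.5 or more in size 1 liver member was higher and 3 were lower. Shares of all genes at these settings are not given here, so nothing about the members is read from these counts. The median log2 fold change in K1-NanER was 0.34 without genes at the floor, an alternative added after seeing the data. The liver median of -0.09 over 10 members, 5 in each direction, became -0.0232 with a pseudocount of 1 FPKM and reversed to 1.03 without Slc4a5, the 1 gene at or under 0.1 FPKM. The authors' own intersection of both lists held 4 of the 11 overlapping pairs for either factor. It held 14.3% of the members' KLF1 peaks and 23.5% of their Nan-KLF1 peaks, against 14.3% and 27.6% of the whole lists. Of the 11 members higher in K1-ER 7 had a KLF1 peak labelled promoter, against 41.8% of all genes called higher. Both alternatives were added after seeing the data. The other 35 values stayed within 1.5 times. Depth is unknown, so low levels such as those of Slc4a5, Slc22a21 and the genes at the floor carry no stated precision.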
